A study of Cricetulus griseus with 9 samples.

Results

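Gene expression in MI5-4 cells labelled as expressing wild-type hexokinase 2 (WTHK2) was compared with that in MI5-4 cells carrying an empty vector (EV). MI5-4 is a subline of Chinese hamster ovary (CHO) cells, and the labels describe the EV cells as hexokinase null. The comparison took 6 of the 9 RNA sequencing libraries of the series, 3 labelled EV and 3 labelled WTHK2, and all 6753 genes of the deposited table. The other 3 libraries (LAC), EV cells kept with sodium lactate (10 mM, 24 h), were left out of it and are used only where a gene named here is set against them. All groups grew at 37 °C and 5% CO2 in the same alpha minimum essential medium, which held 1000 mg/L glucose, penicillin-streptomycin (1%) and fetal bovine serum (10%). The labels do not give the species or promoter of the HK2 construct, whether each line is a clone, or whether the replicates were separate cultures. The p-values therefore measure only the spread between these samples, which may be technical.

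Hexokinases phosphorylate glucose to glucose 6-phosphate, the step that commits it to glycolysis, the pentose phosphate pathway, glycogen or the hexosamine pathway. Hexokinase 2 can bind the outer mitochondrial membrane and is abundant in muscle, fat and many tumours, while hexokinase 1 is found in most tissues. The series is titled for HK2, lactate and lactylation of lysine 18 of histone H3. The comparison addressed which transcripts differ between cells labelled as expressing HK2 and cells described as lacking hexokinase.

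Values are the authors' normalized CPM, reads scaled to a common library size. A change is the difference of group means of log2(CPM + 1), WTHK2 minus EV, with its standard error (SE). A gene passed where its limma p, from a two-sided fit of the 6 libraries and corrected by Benjamini and Hochberg's method across the 6753 genes, was under 0.05, and "higher", "lower", "rose" and "fell" are used only of genes that passed. Effective library sizes, inferred from the steps between CPM values, ran from 18050959 (WTHK2 replicate 1) to 26238659 (WTHK2 replicate 2). The fewest reads inferred in the same way for a gene in any of the 6 libraries were 304. The first principal component held 75.6% of the variance and parted the groups, at -9.94 to -6.97 for EV and 7.04 to 11.1 for WTHK2. The second held 9.86% and parted WTHK2 replicate 1 (5.58) from WTHK2 replicates 2 and 3 (-2.99 and -4.03). Of the marker lists for other cells, 0 of 7 leukocyte, 0 of 6 epithelial, 0 of 4 endothelial and 0 of 4 neuronal genes were in the table, where the lowest gene mean over the 9 libraries was 20.4 CPM. Of 9 stellate or myofibroblast genes, Timp1 alone was listed. Why genes are absent from the table was not tested, so absence does not show a low level or a lack of other cells. In these bulk samples, fewer cells with a transcript and less of it per cell cannot be told apart.

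Hk2 transcript was not higher in the libraries labelled WTHK2. Hk2 stood at 68.4, 68.7 and 64.9 CPM in EV replicates 1 to 3 and at 66.6, 65.3 and 63.9 CPM in WTHK2 replicates 1 to 3. The 2 groups overlapped, and the log2 difference was -0.04 (SE 0.051, limma adjusted p = 0.499), with a 95% interval of -0.15 to 0.06. Hk1 stood at 332, 321 and 318 CPM in EV and at 279, 284 and 294 CPM in WTHK2. All 3 WTHK2 libraries were below all EV libraries for Hk1, a log2 difference of -0.18 (SE 0.035, adjusted p = 3.95e-04). Transcripts of Hk1 and Hk2 were thus present in the EV cells labelled hexokinase null, whose libraries had medians of 67.6 to 68.3 CPM. Whether they give active enzyme was not tested. Adpgk, an ADP-dependent glucokinase, was at 50.3 ± 1.73 CPM (SD, n = 3) in EV and 52.5 ± 3.76 in WTHK2 and did not pass (adjusted p = 0.442). Whether reads of the construct could count toward Hk2 was not tested. The directions that follow for libraries labelled WTHK2 therefore depend on those labels alone.

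A large share of the table differed between the groups, mostly by little. Of 6753 genes, 3290 passed (48.7%), of which 1492 were higher in WTHK2 (22.1% of all genes) and 1798 lower (26.6%). The counts for gene lists that follow are to be set against these shares of 22.1% and 26.6%. Of the genes that passed, 2115 (64.3%) differed by less than 1.2-fold, and the median fold was 1.16 for higher and 1.18 for lower genes. Differences of 1.5-fold or more were found for 24 higher genes (0.355% of all) and 62 lower genes (0.918%). The higher genes were 45.3% of those that passed on the authors' scaling and 57.1% after rescaling all libraries to 1 median, so which direction held more genes depended on the scaling. The groups did not overlap for 57.1% of all genes, 26.6% with WTHK2 above EV and 30.5% below.

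**Figure D1:**
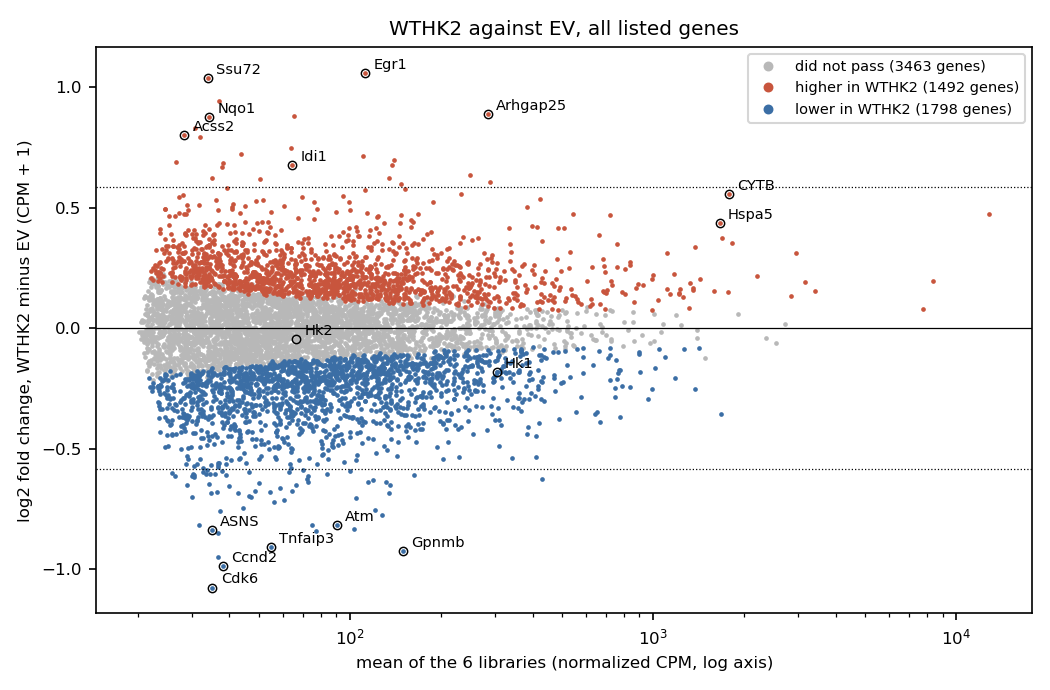
Log2 difference (WTHK2 minus EV) against the mean of the 6 libraries in normalized CPM on a log axis, 1 point per gene, with dotted lines at 1.5-fold. Egr1, Ssu72 and Cdk6 lie beyond 2-fold, Hk2 lies near 0, and most coloured points lie well inside the dotted lines.

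The 30 largest rises were chosen among genes that passed, had a mean of at least 5 CPM and did not overlap between the groups, so their separation is a consequence of the choice. They ran from 0.55 to 1.06 on the log2 scale and, by what the genes are known to do, fell into several kinds. Egr1, an immediate early transcription factor of the zinc finger class, stood at 74.4, 68.0 and 74.6 CPM in EV and at 156, 142 and 158 CPM in WTHK2, a difference of 1.06 (SE 0.052, adjusted p = 1.83e-10). The SDs of Egr1 were 3.76 CPM in EV and 8.97 CPM in WTHK2. Ier3, another immediate early gene, rose from 80.6, 82.3 and 86.7 CPM to 145, 122 and 146 CPM, by 0.71 (SE 0.060, adjusted p = 6.06e-08). Cebpd, a transcription factor of the C/EBP family, rose by 0.79 (SE 0.073). Immediate early transcription factors as a list, Egr1 included, went both ways. Of 13 listed, 4 were higher (30.8%) and 2 lower (15.4%), against 22.1% and 26.6% of all genes. Jun, Myc and Srf, at 0.03, -0.00 and -0.03, did not pass.

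Several of the 30 rises concern lipid and redox metabolism. Acss2, which makes acetyl-CoA from acetate, stood at 19.1, 21.7 and 20.6 CPM in EV and 36.7, 35.0 and 37.4 CPM in WTHK2, a rise of 0.80 (SE 0.074, adjusted p = 1.88e-07). Nqo1, a quinone reductase, stood at 23.7, 24.2 and 23.5 CPM in EV and 43.0, 44.3 and 46.6 CPM in WTHK2. The difference for Nqo1 was 0.88 (SE 0.066, adjusted p = 2.42e-08), with SDs of 0.365 CPM in EV and 1.83 CPM in WTHK2. Oxr1, an oxidation resistance gene, rose by 0.75 (SE 0.10), but its WTHK2 libraries were uneven, at 100, 71.7 and 70.0 CPM. With 1 library left out, the Oxr1 difference ran from 0.58 to 0.84.

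Rises among membrane, matrix and signalling genes included Fcgrt, the neonatal Fc receptor, by 0.83 (SE 0.085), and Cd320, the receptor for transcobalamin, by 0.55 (SE 0.073). Col3a1, a fibrillar collagen, rose from 189, 183 and 193 CPM to 291, 260 and 282 CPM, by 0.56 (SE 0.042, adjusted p = 2.42e-08). Arhgap25, a GTPase-activating protein, rose by 0.89 (SE 0.085), with WTHK2 replicate 1 at 462 CPM against 327 and 326 in replicates 2 and 3. Tns2, a tensin of focal adhesions, rose by 0.69 (SE 0.074), and Plekhg5, an exchange factor for RhoA, by 0.68 (SE 0.086). Cdk11b, a kinase with roles in splicing and transcription, rose from 194 ± 7.67 to 302 ± 20.9 CPM, by 0.64 (SE 0.046). All 30 rises passed with each of the 6 libraries left out in turn, but they were chosen from these same libraries, so this is no independent evidence.

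The 30 largest falls, chosen in the same way, ran from -1.08 to -0.66. Cdk6, a cyclin D-dependent kinase of the G1 phase, stood at 43.6, 55.2 and 44.7 CPM in EV and at 17.1, 23.4 and 26.6 CPM in WTHK2, a difference of -1.08 (SE 0.12, adjusted p = 1.22e-06). Its partner Ccnd2, cyclin D2, stood at 53.2, 52.6 and 47.1 CPM in EV and 22.6, 27.1 and 26.1 CPM in WTHK2, a difference of -0.99 (SE 0.076, adjusted p = 2.66e-08). Rbl1, the pocket protein p107 that binds E2F factors, fell by 0.70 (SE 0.069). Other G1 genes moved less: Ccnd1, cyclin D1, fell by 0.29 (SE 0.038), while Ccnd3, cyclin D3, at 0.06, and Cdk2, at -0.06, did not pass. Of 19 listed G1 genes, 7 were lower and 2 higher, and without EV replicate 2 these were 5 and 0. The 2 higher ones were the inhibitors Cdkn1b (0.19) and Cdkn2c (0.25), which did not pass in 2 and 4 of the 6 fits with a library left out.

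Gpnmb, a glycoprotein of lysosomes and melanosomes, had the smallest adjusted p of any fall. It stood at 197, 197 and 193 CPM in EV and at 102, 103 and 103 CPM in WTHK2, a difference of -0.92 (SE 0.039, adjusted p = 2.30e-11). Csf1, the macrophage colony-stimulating factor, fell from 156, 149 and 152 CPM to 87.8, 88.4 and 93.1 CPM, by 0.75 (SE 0.044, adjusted p = 2.07e-09). Both genes had little spread within either group. Atm, the kinase that signals DNA double-strand breaks, fell from 111, 121 and 115 CPM to 64.2, 66.7 and 64.8 CPM, by 0.82 (SE 0.048, adjusted p = 2.24e-09).

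Falls in RNA and chromatin regulators included Rc3h2, an RNA-binding ubiquitin ligase of messenger RNA decay, by 0.85 (SE 0.071), and Larp1, which binds messenger RNAs of the translation machinery, by 0.70 (SE 0.084). Tet3, a dioxygenase that oxidizes methylcytosine, fell by 0.75 (SE 0.091). Falls in trafficking and cytoskeletal genes included Myo5a, an actin-based transport motor, by 0.82 (SE 0.072), and Arhgef12, an exchange factor for RhoA, by 0.77 (SE 0.063). Trip11, a coiled-coil protein of the Golgi, fell by 0.70 (SE 0.073), and Sulf2, which removes sulfate from heparan sulfate outside the cell, by 0.68 (SE 0.046). Cpd, carboxypeptidase D, was uneven in WTHK2, at 60.2 CPM in replicate 1 against 79.4 and 81.9 in replicates 2 and 3.

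WTHK2 replicate 1 was the library farthest from EV for 20 of the 30 rises and 26 of the 30 falls. Without it, 59 genes passed with a fold of at least 1.5, against 86 with all libraries. Genes for long proteins, of over 2500 residues, were also low in WTHK2, on a hand-written list made after the data were seen. Of its 94 genes, 76 were lower (80.9%) and 2 higher (2.13%), against 26.6% and 22.1% of all genes. Their medians were -0.21, -0.30 and -0.31 in WTHK2 replicates 1 to 3 relative to the EV mean. Of the 30 falls, 4 are on that list (Prune2, Atm, Cep350 and Itpr2), and the part of transcript or protein length in the other falls was not tested.

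**Figure D2:**
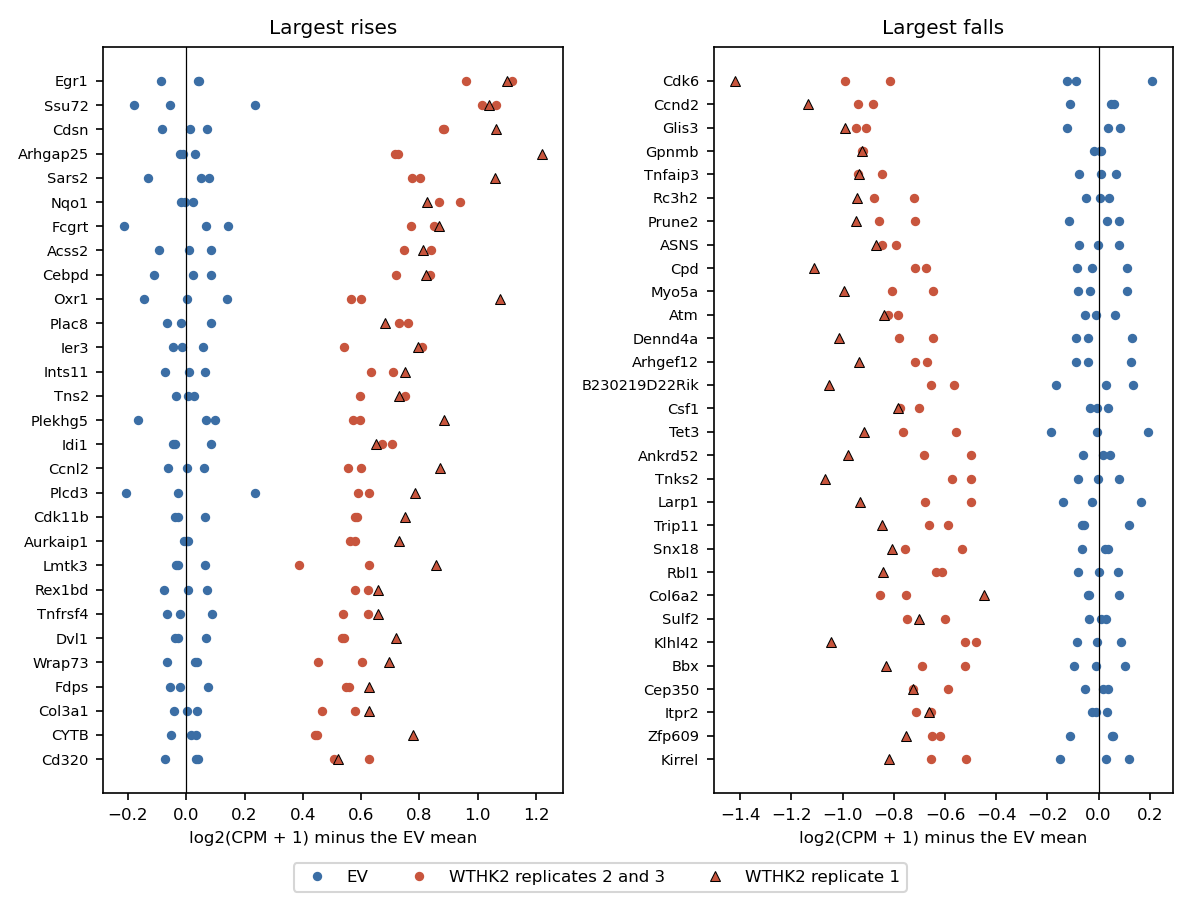
Each library's log2(CPM + 1) minus the EV mean for genes of the 30 largest rises (left; 1 is not shown) and the 30 largest falls (right), with EV in blue, WTHK2 replicates 2 and 3 as red circles and WTHK2 replicate 1 as red triangles. Replicate 1 is the most distant library for most of the genes shown, while Gpnmb, Csf1 and Idi1 have tightly grouped WTHK2 values.

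Of the 30 rises, 7 lie close together in gene order. In RefSeq order on the hamster assembly CriGri-PICRH-1.0, used only for order, 6146 genes of the table (91.0%) could be placed by symbol, among them 27 of the 30 rises. Rises that could not be placed may add to the 7. The window of up to 15 listed genes on each side of Ssu72 held 26 listed genes, with 19 higher and 3 lower and a median log2 difference of 0.42, against -0.01 over all genes. Ssu72, which dephosphorylates the tail of RNA polymerase II, stood at 21.0, 19.2 and 25.9 CPM in EV and at 45.9, 46.7 and 45.1 CPM in WTHK2, a difference of 1.04 (SE 0.087, adjusted p = 6.06e-08). Ints11, the RNA-cleaving subunit of the Integrator complex, rose from 107, 101 and 111 CPM to 179, 165 and 174 CPM, by 0.70 (SE 0.046, adjusted p = 7.31e-09). The other rises of the window among the 30 were Ccnl2, a cyclin of splicing (0.68), Aurkaip1 (0.62), Tnfrsf4, the OX40 receptor (0.61), Dvl1, a Wnt signal transducer (0.60), and Wrap73 (0.58).

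The window's genes are of several kinds. Beside those genes it holds Ube2j2, a ubiquitin-conjugating enzyme of the endoplasmic reticulum (0.55), Nadk, the NAD kinase that supplies NADP (0.44), Pank4 (0.51) and Gnb1, a G protein subunit (0.25). The median of the window over the EV mean was 0.40, 0.40 and 0.39 in WTHK2 replicates 1 to 3, while the EV libraries stood at -0.00, -0.03 and 0.03. The high values began at Tnfrsf4, 8 listed genes before Ssu72, and became smaller on the other side: Agrn, 9 before it, was lower (-0.15, passing in 1 of the 6 fits with a library left out), and Nol9 and Klhl21, 12 and 14 after it, were lower too (-0.17 each, Klhl21 not passing in 1 of the 6 such fits). Reads of neighbouring genes that overlap cannot be told apart here, since the strand setting of the counting is not given in the sources used here.

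**Figure D3:**
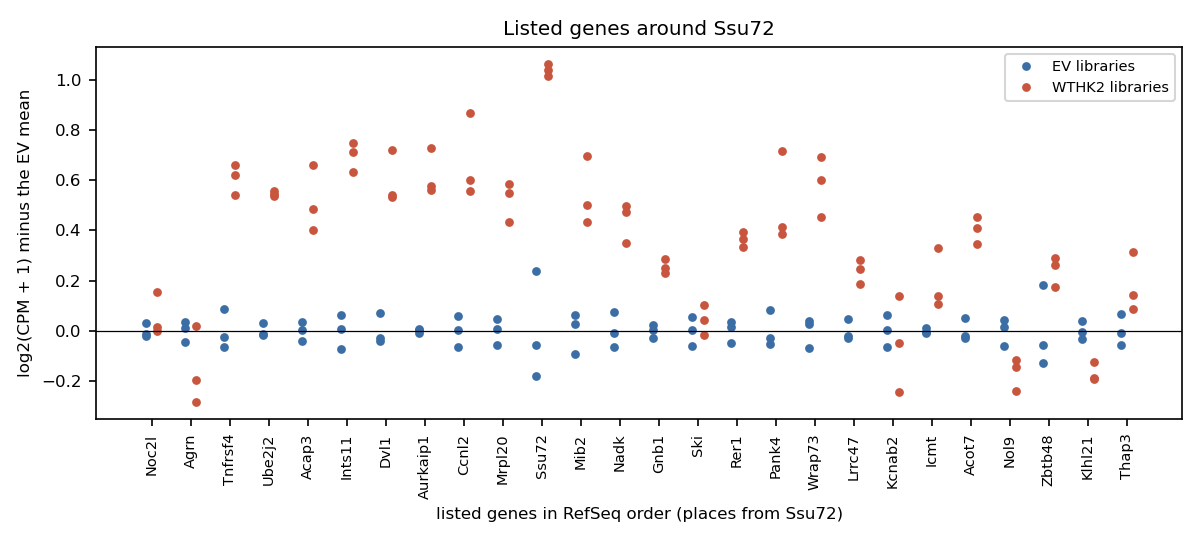
Each library's log2(CPM + 1) minus the EV mean for the 26 listed genes up to 15 places from Ssu72, in RefSeq order, with EV in blue and WTHK2 in red. From Tnfrsf4 to Gnb1 all WTHK2 points lie above all EV points, and farther from Ssu72 some genes overlap or lie lower.

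Cholesterol is made from acetyl-CoA through the mevalonate pathway, whose genes are driven by the factor SREBP2 when sterols are low, while the nuclear receptors LXR drive export genes when sterols are high. Of 19 listed enzymes of synthesis, 18 were higher in WTHK2 and 0 lower (22.1% and 26.6% of all genes), with a median log2 difference of 0.31 against -0.01 for all genes and medians over the EV mean of 0.27, 0.32 and 0.31 in the 3 WTHK2 libraries. In the first steps, Hmgcs1 stood at 49.3, 45.8 and 46.4 CPM in EV and 55.4, 60.6 and 59.4 CPM in WTHK2, a rise of 0.30 (SE 0.059, adjusted p = 3.80e-04). The larger rises were in the middle of the pathway, among enzymes that make and join isoprenoids. Idi1, the isomerase of isopentenyl diphosphate, stood at 52.3, 47.6 and 47.9 CPM in EV and 77.8, 78.9 and 80.9 CPM in WTHK2, a rise of 0.68 (SE 0.055, adjusted p = 4.38e-08). Fdps, farnesyl diphosphate synthase, stood at 117, 120 and 128 CPM in EV and 188, 179 and 178 CPM in WTHK2, a rise of 0.58 (SE 0.044). Fdft1, squalene synthase, rose from 36.8, 35.5 and 39.1 CPM to 52.3, 54.5 and 52.7 CPM, by 0.51 (SE 0.061).

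Among later steps from squalene to cholesterol, Sqle rose from 434, 428 and 437 CPM to 589, 572 and 576 CPM, by 0.42 (SE 0.030, adjusted p = 2.04e-08). Msmo1, a sterol C4-methyl oxidase, rose by 0.45 (SE 0.049) and Ebp, the sterol isomerase, by 0.41 (SE 0.064). The last steps moved less, with Sc5d and Dhcr7 at 0.12 and 0.14, not passing in 5 and 1 of the 6 fits with a library left out, and Lbr, a sterol reductase of the nuclear envelope, at 0.06 did not pass. Insig1, which retains the SREBP complex in the endoplasmic reticulum and is itself an SREBP target, rose by 0.33 (SE 0.058). Srebf2, which codes for SREBP2, was at 0.12 (adjusted p = 0.0415), and did not pass in 4 of the 6 fits with a library left out. The proteases that activate SREBP fell, MBTPS1 by 0.18 and MBTPS2 by 0.25.

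Of 5 listed genes of sterol export, transfer, storage and their regulation, 3 were lower and 1 higher. Abca1 is the only exporter among those named next. Abca1, the cholesterol exporter, stood at 46.9, 56.8 and 51.7 CPM in EV and 39.7, 38.5 and 44.1 CPM in WTHK2, a fall of 0.34 (SE 0.073). Osbp, an oxysterol-binding transfer protein, fell by 0.60 (SE 0.055), and Soat1, which esterifies cholesterol, by 0.33 (SE 0.071). Nr1h3, the LXR-alpha receptor itself, rose by 0.39 (SE 0.073).

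**Figure D4:**
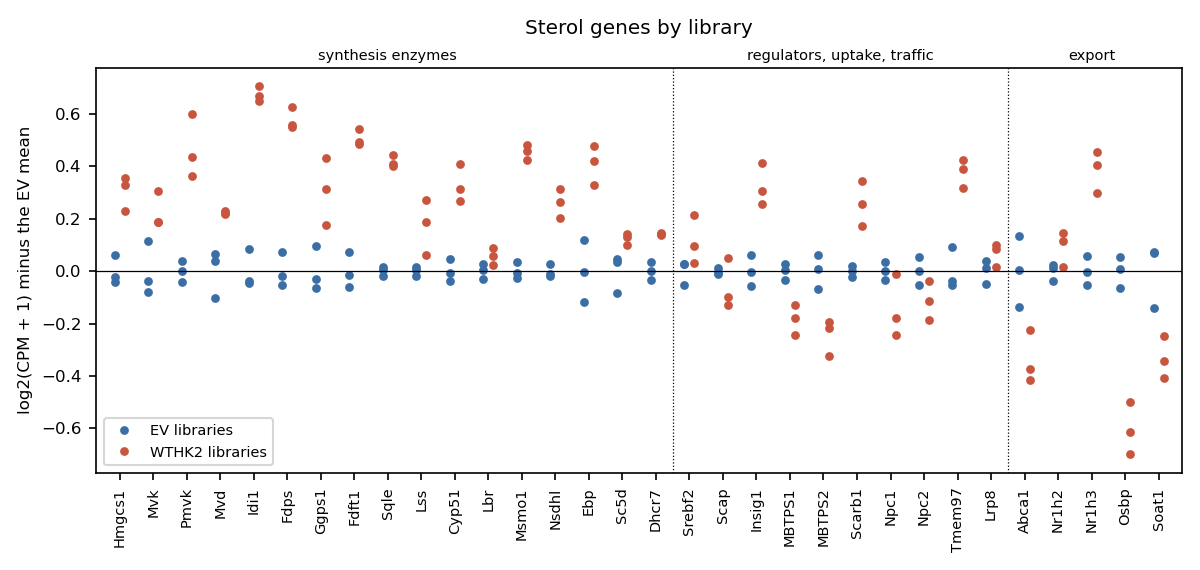
Each library's log2(CPM + 1) minus the EV mean for sterol genes (some listed genes are not shown), with EV in blue and WTHK2 in red. Genes are ordered as synthesis enzymes, then regulators, uptake and traffic, then export, transfer, storage and their regulation. All WTHK2 points lie above all EV points for each enzyme shown except Lbr, with Idi1 and Fdps the highest, and Abca1, Osbp and Soat1 lie below.

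Fatty acid genes were mixed: 7 of 15 rose and 3 fell. Acaca, acetyl-CoA carboxylase, stood at 133, 146 and 141 CPM in EV and 83.5, 90.5 and 95.3 CPM in WTHK2, a fall of 0.64 (SE 0.052, adjusted p = 4.39e-08). Fasn, fatty acid synthase, fell by 0.24 (SE 0.034) and Gpam, which starts glycerolipid synthesis, by 0.53 (SE 0.042). Rises beside Acss2 included Dgat1, which makes triacylglycerol, by 0.35 (SE 0.075), and Elovl1, an elongase of long chains, by 0.32 (SE 0.071).

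Listed glycolytic enzymes below hexokinase moved little, while other genes of glucose use changed in both directions. Of 6 listed glycolytic enzymes, Aldoa, aldolase A, alone passed, at 0.18 (SE 0.034), and the median of the 6 was 0.02. Pfkfb3, which makes the activator of phosphofructokinase, stood at 37.8, 36.0 and 35.7 CPM in EV and 21.3, 23.0 and 26.5 CPM in WTHK2, a fall of 0.61 (SE 0.080, adjusted p = 7.74e-06). Its groups were far apart, with WTHK2 the more variable. In the pentose phosphate pathway, Tkt (transketolase), Pgd and Pgls rose by 0.18, 0.15 and 0.20, while Rpe and Prps2 fell by 0.16 and 0.18 (Rpe did not pass in 1 of the 6 fits with a library left out). Bsg, the chaperone of lactate transporters, rose by 0.16 (SE 0.036) and Mpc2, a subunit of the mitochondrial pyruvate carrier, by 0.25 (SE 0.070). Slc16a1, the lactate transporter MCT1, at -0.09, did not pass (adjusted p = 0.0975), and Slc2a1, the glucose transporter GLUT1, at 0.15 overlapped between the groups and did not pass in 4 of the 6 fits with a library left out.

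ATF4 is the transcription factor of the integrated stress response, and its targets supply amino acids. Of 33 listed genes of this axis, 24 were lower (72.7%) and 1 higher (3.03%), against 26.6% and 22.1% of all genes, with a median of -0.19. The higher one was Cebpb, at 0.21, which overlapped between the groups and did not pass in 2 of the 6 fits with a library left out. The amino acid enzymes held the largest fall: ASNS, asparagine synthetase, stood at 42.7, 45.1 and 47.7 CPM in EV and 24.3, 25.6 and 24.6 CPM in WTHK2, a difference of -0.84 (SE 0.068, adjusted p = 4.38e-08). Psat1, of serine synthesis, stood at 176, 168 and 164 CPM in EV and 108, 121 and 123 CPM in WTHK2, a difference of -0.53 (SE 0.050). Of 6 listed transporters, 5 were lower, among them Slc7a5 and Slc1a4 by 0.52 each, and Slc3a2, the partner chain of Slc7a5, at 0.00 did not pass. Among the regulators, Atf4 itself fell by 0.17 (SE 0.039), Atf5 by 0.51 (SE 0.048) and Trib3, a pseudokinase that feeds back on the pathway, by 0.49 (SE 0.069). The kinases that start the response, Eif2ak1, Eif2ak3 and Eif2ak4, fell by 0.21, 0.21 and 0.19, but Eif2ak3 and Eif2ak4 did not pass in 2 and 1 of the 6 fits with a library left out. Chac1, which degrades glutathione, fell from 34.8 ± 1.52 to 23.7 ± 2.69 CPM, by 0.54 (SE 0.082). Of 19 cytosolic tRNA synthetases, 8 were lower and 3 higher, with Iars, for isoleucine, at -0.38 (SE 0.035). Of 10 mitochondrial ones, 4 were higher and 1 lower; Sars2, for serine, stood at 45.5 ± 3.63 CPM in EV and 84.7 ± 9.56 in WTHK2, a rise of 0.88 (SE 0.073, adjusted p = 5.25e-08).

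Folding genes of the endoplasmic reticulum were mostly higher. Of 22 chaperones and folding enzymes, 17 were higher and 1 lower (median 0.24). Hspa5, the chaperone BiP, stood at 1425, 1372 and 1428 CPM in EV and 2030, 1834 and 1854 CPM in WTHK2, a rise of 0.44 (SE 0.035, adjusted p = 3.61e-08). Sdf2l1, which works with BiP, rose from 73.6, 77.0 and 73.0 CPM to 104, 104 and 105 CPM, by 0.48 (SE 0.046). Xbp1, a transcription factor of the unfolded protein response, rose from 35.2, 35.8 and 36.8 CPM to 49.5, 49.5 and 52.4 CPM, also by 0.48 (SE 0.060). Of 10 sensor and degradation genes 3 rose and 4 fell: Atf6, a membrane-bound sensor, fell by 0.36 (SE 0.063), and Sel1l and Edem3, of disposal of misfolded proteins, by 0.28 and 0.26. The 1 folding enzyme that fell was Txndc5, by 0.12.

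Serpinh1, the chaperone of procollagen, had one of the 5 smallest adjusted p-values among the rises. It stood at 316, 310 and 328 CPM in EV and 455, 447 and 450 CPM in WTHK2, a rise of 0.50 (SE 0.033, adjusted p = 7.31e-09). Of 14 collagen processing genes, 7 were higher and 1 lower, including Pcolce (0.42) and Bmp1 (0.40), which cut procollagen ends. The collagens themselves were split, with 3 of 8 higher and 4 lower: Col3a1, Col5a1 and Col6a1 rose by 0.56, 0.32 and 0.39, while Col6a2 and Col12a1 fell by 0.68 and 0.54. Col6a1 and Col6a2 code for chains of the same collagen VI and went opposite ways. Without EV replicate 1, without WTHK2 replicate 2 or with libraries at the same median, 2 collagens were lower, not 4. Thbs1, thrombospondin 1, rose from 156, 152 and 152 CPM to 219, 214 and 232 CPM, by 0.53 (SE 0.040, adjusted p = 2.48e-08). Timp1, an inhibitor of matrix proteases, rose by 0.47 (SE 0.042), while Fn1, fibronectin, fell by 0.35 (SE 0.037) and Lama2, a laminin chain, by 0.61 (SE 0.043).

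NRF2 drives genes of thiol and quinone defence. Of 29 listed targets and enzymes, 17 were higher and 3 lower (median 0.16). Beside Nqo1, Prdx1, a peroxiredoxin, stood at 336, 355 and 368 CPM in EV and 469, 478 and 470 CPM in WTHK2, a rise of 0.42 (SE 0.036, adjusted p = 6.19e-08). Mgst1, a membrane glutathione transferase, rose from 284, 285 and 291 CPM to 386, 376 and 388 CPM, by 0.42 (SE 0.033). The members were not uniform: Txnrd1, Srxn1 and Cat, at 0.03, 0.00 and -0.00, did not pass, and Sqstm1, an autophagy receptor, fell by 0.26. Keap1, the inhibitor of NRF2, rose by 0.26 (SE 0.051), and Nfe2l2, which codes for NRF2, at 0.10 did not pass.

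The regulators of NF-kB were mostly lower, with 8 of 12 lower (66.7%), 1 higher (8.33%) and a median of -0.26. Of its 12 targets, 3 rose (25%) and 2 fell (16.7%). Over all genes 22.1% were higher and 26.6% lower. Tnfaip3, the feedback inhibitor A20, stood at 75.2, 72.1 and 67.9 CPM in EV and 37.0, 39.4 and 36.9 CPM in WTHK2, a fall of 0.91 (SE 0.059, adjusted p = 7.31e-09). Rela, the p65 subunit, fell from 437, 445 and 444 CPM to 316, 332 and 349 CPM, by 0.41 (SE 0.036). Among targets, Vcam1, an adhesion receptor, fell by 0.57 (SE 0.065) and Csf1 by 0.75, while the chemokines Cxcl1 and Ccl7 rose by 0.40 and 0.27.

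Respiratory chain genes of both genomes were mostly higher. Of 61 nuclear genes of the chain, 47 were higher (77.0%, against 22.1% of all genes) and 0 lower (median 0.20). Mitochondrial import was mixed, with 11 of 29 genes higher and 4 lower. By complex, 25 of 32 genes of complex I were higher, 2 of 4 of complex II, 6 of 7 of complex III, 6 of 7 of complex IV and 8 of 11 of the ATP synthase. Ndufb7, of complex I, stood at 79.2, 84.8 and 81.2 CPM in EV and 109, 106 and 110 CPM in WTHK2, a rise of 0.40 (SE 0.046, adjusted p = 2.37e-06). Uqcrfs1, the Rieske protein of complex III, rose from 188, 184 and 193 CPM to 238, 235 and 238 CPM, by 0.33 (SE 0.036). Ndufv1, Sdha and Atp5b, catalytic subunits of complex I, complex II and the ATP synthase, did not pass, at 0.00, 0.03 and 0.05. The 4 listed transcripts of the mitochondrial genome rose by 0.47 to 0.56, with medians over the EV mean of 0.73 in WTHK2 replicate 1 and 0.45 and 0.40 in replicates 2 and 3. CYTB, cytochrome b, stood at 1455, 1387 and 1470 CPM in EV and 2462, 1952 and 1959 CPM in WTHK2, a rise of 0.56 (SE 0.059, adjusted p = 9.21e-07). The groups did not overlap, with replicate 1 far above the other WTHK2 libraries, and reads from nuclear copies of mitochondrial genes cannot be told apart here.

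Of 69 mitochondrial ribosomal protein genes, 45 were higher and 0 lower (median 0.19); the large subunit held 29 of 42 and the small subunit 16 of 27. Mrpl32 and Mrpl20, both of the large subunit, rose by 0.53 and 0.52, and Mrpl20 lies next to Ssu72. Of 33 cytosolic ribosomal protein genes, 31 were higher and 0 lower (median 0.19), and the medians over the EV mean were 0.19, 0.18 and 0.17 in WTHK2 replicates 1 to 3. With quantile normalization these were 25 higher and 2 lower, and Rpsa, at 0.13, was then at -0.03. Rpl22l1, a paralog of Rpl22, had the largest difference of these genes, 0.53 (SE 0.064), and Rps4x and Rpl7l1, at -0.04 and -0.06, did not pass. Ribosomal protein genes have many near-identical copies in mammalian genomes, so the assignment of reads among them is uncertain. Genes of ribosome assembly did not move with them: of 40, 5 were higher and 9 lower.

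The proteasome, which degrades ubiquitin-tagged proteins, was higher as well: 30 of 40 genes were higher and 2 lower (median 0.17). In the 20S core 12 of 14 were higher and 0 lower, and in the regulatory particle 14 of 19 were higher and 1 lower, Psmd2 at -0.10, which did not pass in 3 of the 6 fits with a library left out. Psmd3, a lid subunit, rose from 661, 660 and 676 CPM to 808, 863 and 873 CPM, by 0.35 (SE 0.033, adjusted p = 2.15e-07). Nfe2l1, the transcription factor of proteasome genes, fell by 0.20. The deubiquitinases of the Usp family, which remove the tag, were lower, 19 of 33 with 1 higher, and 12 lower without EV replicate 2. The higher one, Usp11 at 0.16, did not pass in 5 of the 6 fits with a library left out. Usp9x fell by 0.35 (SE 0.039).

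Chromatin genes were mostly lower. Of 30 remodelling factors, 22 were lower and 1 higher, with a median of -0.22 and medians over the EV mean of -0.17, -0.28 and -0.23 in WTHK2 replicates 1 to 3. Pbrm1, a PBAF subunit, stood at 91.3, 104 and 93.4 CPM in EV and 61.1, 68.5 and 71.2 CPM in WTHK2, a fall of 0.52 (SE 0.062, adjusted p = 3.10e-06). Atrx, which deposits histone H3.3, fell by 0.48 (SE 0.062). Smarce1, a small subunit of the BAF complex, was the member that rose, from 418, 412 and 414 CPM to 581, 546 and 534 CPM, by 0.41 (SE 0.034). Of the 30, 6 are on the list of long proteins, and of the other 24, 16 were lower and 1 higher, with a median of -0.20.

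Enzymes that write or remove histone acyl and methyl marks are of interest because the series concerns histone lactylation. Of 12 acetyltransferase genes, 6 were lower (50%) and 2 higher (16.7%), against 26.6% and 22.1% of all genes. Ep300, a histone acetyltransferase, stood at 144, 146 and 144 CPM in EV and 127, 115 and 123 CPM in WTHK2, a fall of 0.25 (SE 0.045, adjusted p = 1.84e-04). Its paralog Crebbp, at 0.03, did not pass. Kat6a fell from 130, 123 and 121 CPM to 90.2, 84.6 and 84.0 CPM, by 0.52 (SE 0.047), and Kat2b by 0.46 (SE 0.082). Of 10 deacylase genes, which remove acetyl and other acyl groups, 2 were higher (20%) and 1 lower (10%). The class I deacetylases Hdac1, Hdac2 and Hdac3, at 0.01, 0.06 and -0.01, did not pass. Of 25 methyltransferases, 10 were lower (40%) and 2 higher (8%), and of 15 demethylases 8 were lower (53.3%) and 0 higher. Kmt2a, a histone methyltransferase, fell by 0.54 (SE 0.051), and Kdm2a, a histone demethylase, by 0.46 (SE 0.047). Of the 40 methylation genes, 6 are on the list of long proteins; of the other 34, 14 were lower and 2 higher.

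Nuclear transport genes were lower too. Of 22 transport receptors and related genes, 15 were lower (68.2%) and 1 higher (4.55%), against 26.6% and 22.1% of all genes. Ran, the GTPase that gives transport its direction, was the member that rose, at 0.14 (SE 0.030). Xpo7, an exportin, stood at 92.3, 97.1 and 90.1 CPM in EV and 57.8, 73.2 and 71.6 CPM in WTHK2, a fall of 0.47 (SE 0.070). Tnpo1, transportin 1, fell by 0.44 (SE 0.062). Of 22 nucleoporins, 12 were lower (54.5%) and 1 higher, Aaas at 0.17.

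In mTOR and insulin signalling, 15 of 22 genes were lower (68.2%) and 0 higher, against 26.6% and 22.1% of all genes, with a median of -0.20. Rictor, the defining subunit of mTORC2, stood at 43.6, 45.4 and 42.6 CPM in EV and 31.6, 28.9 and 27.9 CPM in WTHK2, a fall of 0.56 (SE 0.068, adjusted p = 3.58e-06). Mtor itself fell from 144, 155 and 153 CPM to 121, 123 and 121 CPM, by 0.31 (SE 0.042). Inhibitors of the pathway fell as well, Deptor by 0.59, Tsc1 by 0.44 and Eif4ebp2, a translation repressor, by 0.60. Rheb, Mlst8 and Eif4ebp1, at 0.05, 0.06 and 0.05, did not pass. In the Hippo pathway, 8 of 15 genes were lower (53.3%) and 3 higher (20%). Amotl1, an angiomotin that binds YAP, fell by 0.65 (SE 0.066), while the YAP targets Ccn1 and Ccn2 rose by 0.26 and 0.31. In the TGF-beta pathway 8 of 16 were lower (50%) and 1 higher (6.25%). Smurf2, a ubiquitin ligase for its receptors, was at -0.39 (SE 0.042) and Id3, a target, at -0.37 (SE 0.049). Of 22 MAP kinases and their upstream kinases 12 were lower and 3 higher, and 6 were lower without EV replicate 1.

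**Figure D5:**
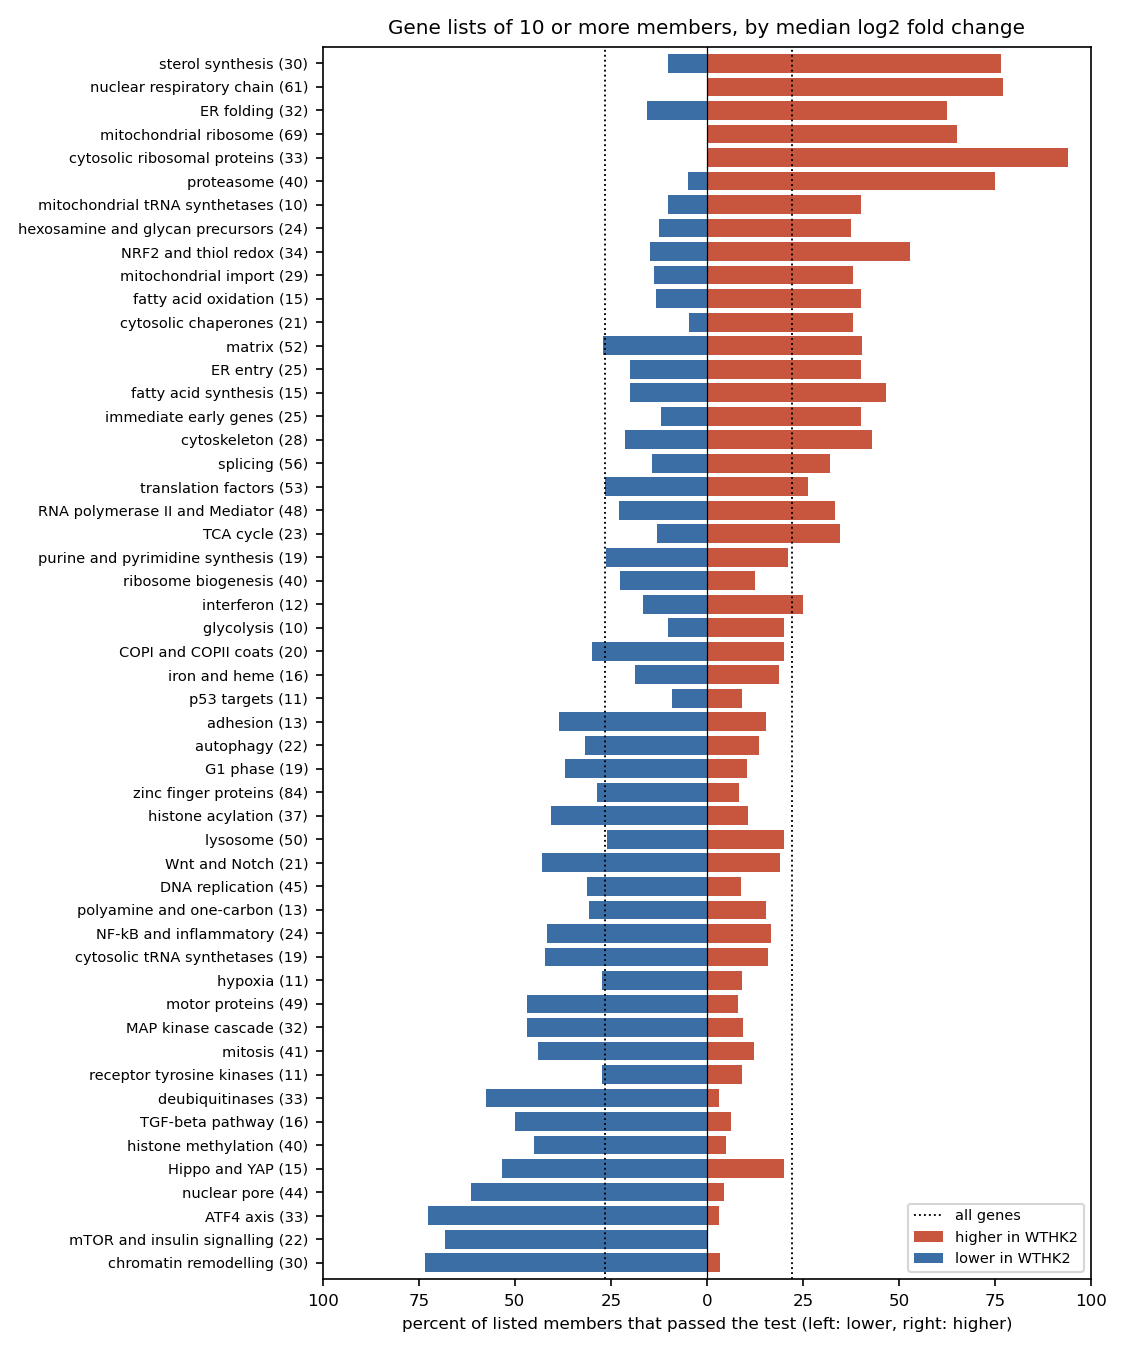
Percent of the listed members of each gene list that were lower (blue, left) or higher (red, right) in WTHK2, for whole lists of 10 or more members (number in brackets; the long protein list and the parts of lists by role are not drawn), ordered by median log2 difference. Dotted lines mark the 26.6% lower and 22.1% higher of all genes, and among the lists drawn cytosolic ribosomal proteins reach the highest share of higher genes and chromatin remodelling the highest share of lower genes.

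Other lists had fewer members that passed, or went both ways. Of 23 genes of the citric acid cycle 8 were higher and 3 lower, and with libraries at the same median 10 and 0; Idh1, a cytosolic isocitrate dehydrogenase that makes NADPH, rose by 0.39 (SE 0.072). Of 24 genes for hexosamine and glycan precursors 9 were higher and 3 lower, and both enzymes that cycle O-GlcNAc on proteins fell, Ogt by 0.26 and Oga by 0.27. Of 50 lysosomal genes 10 were higher (20%) and 13 lower (26%), near the 22.1% and 26.6% of all genes. Among them Ctsh, cathepsin H, was at 0.46 and Psap, prosaposin, at -0.39. Of 53 translation factors 14 were higher and 14 lower (26.4% each), also near the shares of all genes. Of 11 hypoxia genes 1 was higher and 3 lower, with Hif1a at -0.26 (SE 0.046), and of 11 p53 targets 1 was higher and 1 lower.

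Of 45 genes of DNA replication 14 were lower, 31.1% against 26.6% of all genes, and 4 higher, 8.89% against 22.1% (1 higher without EV replicate 1, WTHK2 replicate 2 or WTHK2 replicate 3 and 2 without EV replicate 2). Rfc1, a clamp loader subunit, fell by 0.40 (SE 0.048) and Mcm2, of the replicative helicase, by 0.20 (SE 0.031). Of 41 mitotic genes 18 were lower (43.9%) and 5 higher (12.2%), with Smc2, a condensin subunit, at -0.44 (SE 0.038) and Aurka, a spindle kinase, at 0.27 (SE 0.046).

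Of the most abundant and most precisely measured transcripts, Actb, beta-actin, stood at 7881, 7766 and 7812 CPM in EV and 8905, 9107 and 8843 CPM in WTHK2, a rise of 0.19 (SE 0.025, adjusted p = 5.65e-06). Vim, the filament protein vimentin, rose by 0.31 (SE 0.027). S100a6, a calcium-binding protein, rose from 600, 587 and 627 CPM to 857, 818 and 839 CPM, by 0.47 (SE 0.032, adjusted p = 1.07e-08). Myof, a membrane repair protein, fell by 0.53 (SE 0.035, adjusted p = 7.31e-09). EEF1A1, a translation elongation factor, at 0.08 overlapped between the groups and did not pass in 5 of the 6 fits with a library left out. Quantile normalization sets the highest values of all libraries equal, so Actb and EEF1A1 show no difference under it by construction.

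The hand-written list of long proteins shares 6 of 30 genes with chromatin remodelling, 6 of 40 with histone methylation, 2 of 33 with the deubiquitinases, 1 of 44 with nuclear transport and 1 of 22 with mTOR and insulin signalling. It also shares 4 of 52 with the matrix genes, Lama2 and Col12a1 among them, and 4 of 41 with the mitotic genes. Without its members, 11 of 48 matrix genes were lower and 21 higher, and 15 of 37 mitotic genes were lower and 5 higher. The long protein list shares 0 genes with the ATF4 axis, the Hippo, NF-kB and G1 lists, the respiratory chain, both ribosomal lists, the proteasome and sterol synthesis. The part of length in these list values was not tested beyond the counts given without its members.

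The genes named above were also set against LAC in a fit of all 9 libraries, by the direct contrast of WTHK2 with LAC. In that contrast 1089 of 6753 genes passed (16.1%), 565 higher in WTHK2 (8.37%) and 524 lower (7.76%). Of the 30 rises, 27 were higher in WTHK2 than in LAC, and of the 30 falls 9 were lower, with 0 in the opposite direction in either set. The genes were picked for their WTHK2 values, which enter both contrasts, so these counts describe the named genes and are no independent evidence.

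For Hmgcs1, of sterol synthesis, LAC lay below EV and WTHK2 above it. Hmgcs1 stood at 58.5 ± 2.73 CPM in WTHK2 and 32.9 ± 1.90 in LAC, against 47.1 ± 1.85 in EV, a difference of 0.81 between WTHK2 and LAC (limma adjusted p = 1.93e-08). Sterol enzymes did not all share this order: Fdps was at 134 ± 6.11 CPM in LAC, above its EV mean of 121 ± 5.69. Idi1 was at 45.9 ± 2.51 CPM in LAC and 49.3 ± 2.62 in EV. Nqo1, at 29.2 ± 2.62 CPM in LAC, and Ssu72, at 23.6 ± 0.702, were lower there than in WTHK2 by 0.60 and 0.93 (adjusted p = 7.83e-06 and 2.32e-07). Egr1 was at 127 ± 6.43 CPM in LAC, above its EV values, and its difference of 0.25 between WTHK2 and LAC also passed (adjusted p = 0.00277). The 3 rises that did not pass against LAC were Arhgap25 (adjusted p = 0.170), Lmtk3 (0.871) and CYTB (0.532).

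The 9 falls that were lower in WTHK2 than in LAC were Ccnd2, Glis3, Gpnmb, Tnfaip3, ASNS, Csf1, Rbl1, Col6a2 and Sulf2. ASNS stood at 46.2 ± 5.97 CPM in LAC and 24.9 ± 0.716 in WTHK2, a difference of -0.86 (adjusted p = 2.32e-07). Gpnmb stood at 169 ± 11.8 CPM in LAC, a difference of -0.71 (adjusted p = 1.30e-09). For the other 21 falls the contrast did not pass: Cdk6, for example, was at 23.0 ± 5.24 CPM in LAC and 22.4 ± 4.85 in WTHK2, a difference of -0.04 (SE 0.14, adjusted p = 0.890), and Atm was at 70.9 ± 10.1 and 65.2 ± 1.30 CPM. Not passing does not show that the levels were equal, since the standard errors of these differences were up to 0.14.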

How the data were processed

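The deposited table gives normalized CPM per gene, made by the authors and used as deposited. Per the labels' protocols, total RNA went into Nugen Universal Plus mRNA-seq libraries, and the submitters' processing notes name STAR 2.7.0a, featureCounts 2.0.1, edgeR 3.8, cutadapt 1.18 and FastQC 0.11.8. Neither build, annotation nor strand setting is given in the sources used here. All values are whole multiples of a library's smallest step within 0.01, from which effective library sizes and read numbers were inferred. Whether the steps are single whole reads could not be settled, so these numbers are estimates, and counting error was not separated from the spread between libraries. Log2(CPM + 1) of the 6 libraries was fitted with limma 3.58.1 (R 4.3.3) with a variance trend, two-sided, over 6753 genes. A minimum mean of 1 CPM removed 0 genes. Fold changes are on this scale, which understates those of low genes. WTHK2 was set against LAC in a 9-library fit.

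Genes named are the 30 largest rises and 30 largest falls among genes that passed, averaged 5 CPM or more and did not overlap, the 5 smallest adjusted p-values each way, the 10 most abundant genes, the genes around Ssu72 and members of the gene lists. The comparison and the lists were chosen with earlier results of these data known, and the list of long proteins was written from general knowledge after the data were seen. Scripts were tested on simulated data. Alternatives were the pseudocount, filter, scaling, variance model, replicate block, all 9 libraries and leaving out each library. A count test was not the main fit, since the values are CPM, but limma-voom on the inferred reads was an added alternative. Promoter and protein sequences were not used here. Python 3.11.15 with pandas 2.3.3 and matplotlib 3.10.9 made the tables and figures. A few genes that the rule names are not reported here.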

Additional observations from a re-analysis of the deposited data

How the results depend on the processing

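The number of genes that passed, 3290, ran from 3092 to 3363 under the other pseudocounts, scalings and variance models and the use of 9 libraries, and from 2589 (without EV replicate 2) to 3226 with each library left out. It was 2380 with a minimum mean of 50 CPM, where fewer genes are tested. The genes past 1.5-fold, 86, were 43 with that minimum, 13 higher and 30 lower, and 59 to 102 with a library left out. The higher ones among them were then 16 (without WTHK2 replicate 1) to 31, and the lower ones 43 to 74. Genes higher and lower numbered 1919 and 1444 with libraries at the same median, and 1143 to 1436 and 1446 to 1790 with a library left out. Of 73 named genes, 8 did not keep their call in at least 1 alternative, and 1 value reversed: Rpsa was at -0.026 under quantile normalization (adjusted p = 0.230), and the cause was not tested. With the replicate block, 3433 genes passed against 3290, and 86 past 1.5-fold either way. Same-numbered libraries deviated together with correlations of 0.076, 0.141 and -0.0057, and EV replicate 3 correlated best with WTHK2 replicate 1, so the numbers were not taken as pairs. Limma-voom on the read numbers inferred from the steps (3314 genes) and rescaling without the mitochondrial transcripts (3304 genes) were chosen after seeing the data. An edgeR count test, and the checks of protein length and promoter motifs, were not run. The fewest inferred reads of a gene were 304 to 468 per library, and whether depth limits calls of such genes was not tested.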
